A study of Mus musculus with 13 samples.

Results

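The comparison set 2 kinds of gliosis, the reaction of the brain's glial cells to injury, directly against each other: that of mice after a transient stroke, whose microglia were present, and that of mice whose microglia had been killed with a toxin and which had no stroke. Its members are 8 of the 13 sequenced brain libraries, chosen by their labels alone, namely the 4 of the group tMCAO_MG_CON (called the stroke group here) and the 4 of the group sham_MG_DE (the depletion group). The other 2 groups, sham_MG_CON (3 libraries, the control group) and tMCAO_MG_DE (2 libraries, depleted and occluded), entered the same model and are given beside the members where they help to place a value.

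Per the labels, every mouse was a male of the genotype CX3CR1creER/+ with 1 Cre-dependent diphtheria toxin receptor allele (iDTR/+) at Rosa. By these labels the control groups carried the same alleles, and all mice received 2 oral doses of tamoxifen at 7 to 8 weeks of age. The number after Rosa differs between the libraries, and they were read as 1 genotype. The depletion group then received diphtheria toxin, 50 ng per g body weight on 3 days in a row from 30 days after tamoxifen, and a sham operation. The stroke group received saline in place of the toxin, and its right middle cerebral artery was blocked with a filament for 60 min before the blood was let back in (tMCAO). The labels give 6 to 8 weeks as the age at surgery, which cannot be joined with tamoxifen at 7 to 8 weeks and a further 30 days, and the sources used here give neither the brain region nor the interval between surgery or toxin and sampling. The Cre is driven by the Cx3cr1 gene, which is also active in other mononuclear phagocytes, and 1 allele of Cx3cr1 is itself taken up by the insert. The groups differ in both toxin and surgery, and the surgery also coincides with the deposited table that holds the counts, so these cannot be told apart within the comparison.

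Microglia are the resident macrophages of the brain. They depend on signalling through the receptor Csf1r, and they survey the tissue, clear debris and release cytokines. After ischemia they proliferate and switch on genes of lipid handling and phagocytosis, while astrocytes enlarge, express intermediate filaments such as Gfap and respond to interleukin-6 family cytokines through STAT3. When microglia are killed in an otherwise intact brain, their debris has to be cleared by other cells, and astrocytes are known to react to that loss as well.

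Counts were scaled to a common library total with TMM factors and are given as CPM, and each gene was tested with edgeR's quasi-likelihood test in 1 model of the 13 libraries. A gene was called where its Benjamini-Hochberg adjusted p, over all 16940 genes tested, was below 0.05, and log2 changes are tMCAO_MG_CON minus sham_MG_DE unless said otherwise, with their standard error (SE). Where 4 values are listed, they are CPM in the order of replicates 1 to 4. The libraries held 16239763 to 22080367 counts. In principal components of log2 CPM, replicate 1 of sham_MG_DE stood apart from its group, at 5.04 on the first component against -48.0 to -31.9 for the other 3 libraries and 20.7 to 32.4 for tMCAO_MG_CON. Replicate 4 of tMCAO_MG_CON carries the title and description of its group but a treatment entry that reads sham surgery, and its Gfap and heat shock levels, given below, lay among those of the other stroke libraries. RNA of unsorted brain tissue was measured, so that fewer cells of a type and less RNA per cell cannot be told apart.

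**Figure D1:**
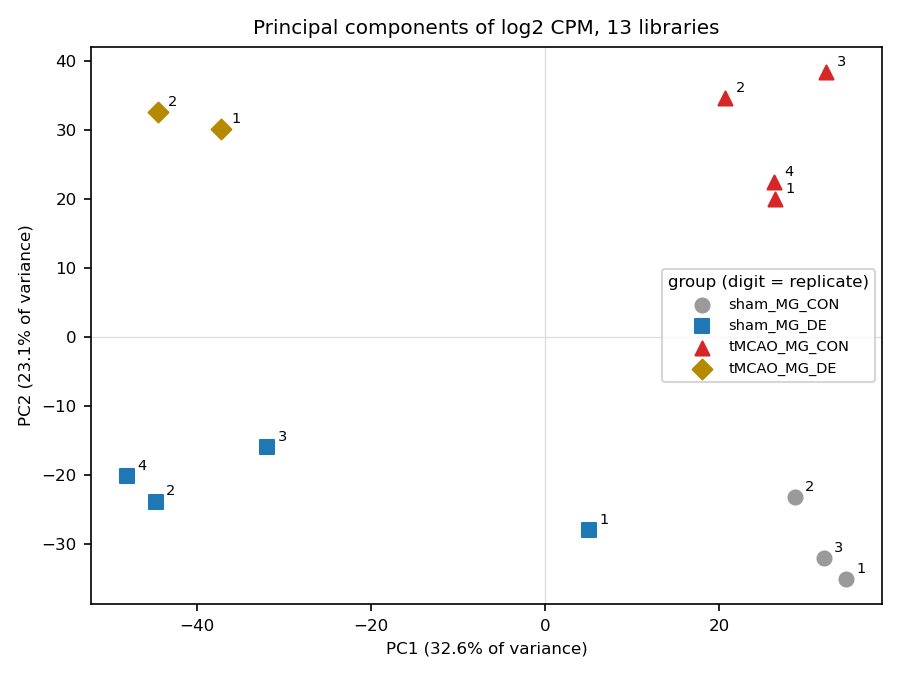
The 13 libraries are placed on the first (x axis, 32.6% of variance) and second (y axis, 23.1%) principal components of log2 CPM over the genes tested, with 1 point per library, its group by colour and shape and its replicate number beside it. The tMCAO_MG_CON libraries lie at the upper right and sham_MG_DE at the lower left, except for its replicate 1 at 5.04 on the first component.

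Of the 16940 genes, 4177 (24.7%) were called, 2152 (12.7%) higher and 2025 (12%) lower in tMCAO_MG_CON than in sham_MG_DE. At least 2-fold differences were more often upward, with 662 genes (3.91%) higher and 385 (2.27%) lower. The median change over all genes tested was 0.01. On these counts 51.5% of the calls were upward, and with limma on log2(FPKM + 0.1), which gave 4168 calls and moved the median by 0.07, 69.2% were. The balance of small differences thus depended on the setting. The FPKM fit used no TMM factors, which were 1.01 to 1.05 in tMCAO_MG_CON and 0.966 to 0.997 in sham_MG_DE. Scale, test and normalization changed together there, and their parts were not tested. The calls numbered 2971 without sham_MG_DE replicate 2, and 225 rather than 385 genes were then at least 2-fold lower. Without sham_MG_DE replicate 1 the calls numbered 4998, and without that library and tMCAO_MG_CON replicate 4 together they numbered 4440. For reference, in the same model 8.44% of genes were called between tMCAO_MG_CON and sham_MG_CON and 11.3% between sham_MG_DE and sham_MG_CON. The last 2 comparisons share the control libraries, so their values are given side by side only. The gene lists below hold 629 genes, of which 619 were listed in all tables and 593 passed the filter on low counts. Their counts of members called stand beside the shares of all genes above, 12.7% higher and 12% lower.

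The 10 largest separated rises were led by Cd14, a co-receptor for bacterial lipopolysaccharide, and the 10 largest falls by Misp, a protein of the actin cortex and spindle. Cd14 stood at 4.14, 18.3, 20.2 and 7.08 CPM in tMCAO_MG_CON and 0.487, 0.273, 0.305 and 0.342 in sham_MG_DE, a log2 change of 5.12 (SE 0.54, adjusted p = 4.7e-05), higher in 4 of 4 libraries. The other rises were Mmp3 (4.98) and Klk6 (4.09), secreted proteases, Fcrls (4.80), Bin2 (4.12) and Ly86 (4.11), genes of microglia and other myeloid cells, Spp1 (4.33), the secreted protein osteopontin, Ccl12 (4.16), a monocyte chemokine, Tgm1 (4.62), a transglutaminase, and Ptx3 (4.16), a secreted pattern recognition protein. In every one of them the lowest stroke library lay above the highest depletion library, which by the rule is how they were chosen. Leaving out 1 library moved 4 of these folds by over 1.5 times, namely Mmp3 without sham_MG_DE replicate 1 (6.46), Ly86 without sham_MG_DE replicate 3 (5.04), Ptx3 without tMCAO_MG_CON replicate 3 (3.50), and Tgm1 without tMCAO_MG_CON replicate 3 (3.84) or sham_MG_DE replicate 2 (5.38). The other falls were Loxhd1 (-4.02), Egr2 (-3.18), Lpar2 (-3.10), Trim17 (-2.97), A3galt2 (-2.71), Traip (-2.70), Epha8 (-2.41), Hhipl2 (-2.38) and Aoc3 (-2.27), and several of them come back below with the genes that set replicate 1 of sham_MG_DE apart.

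**Figure D2:**
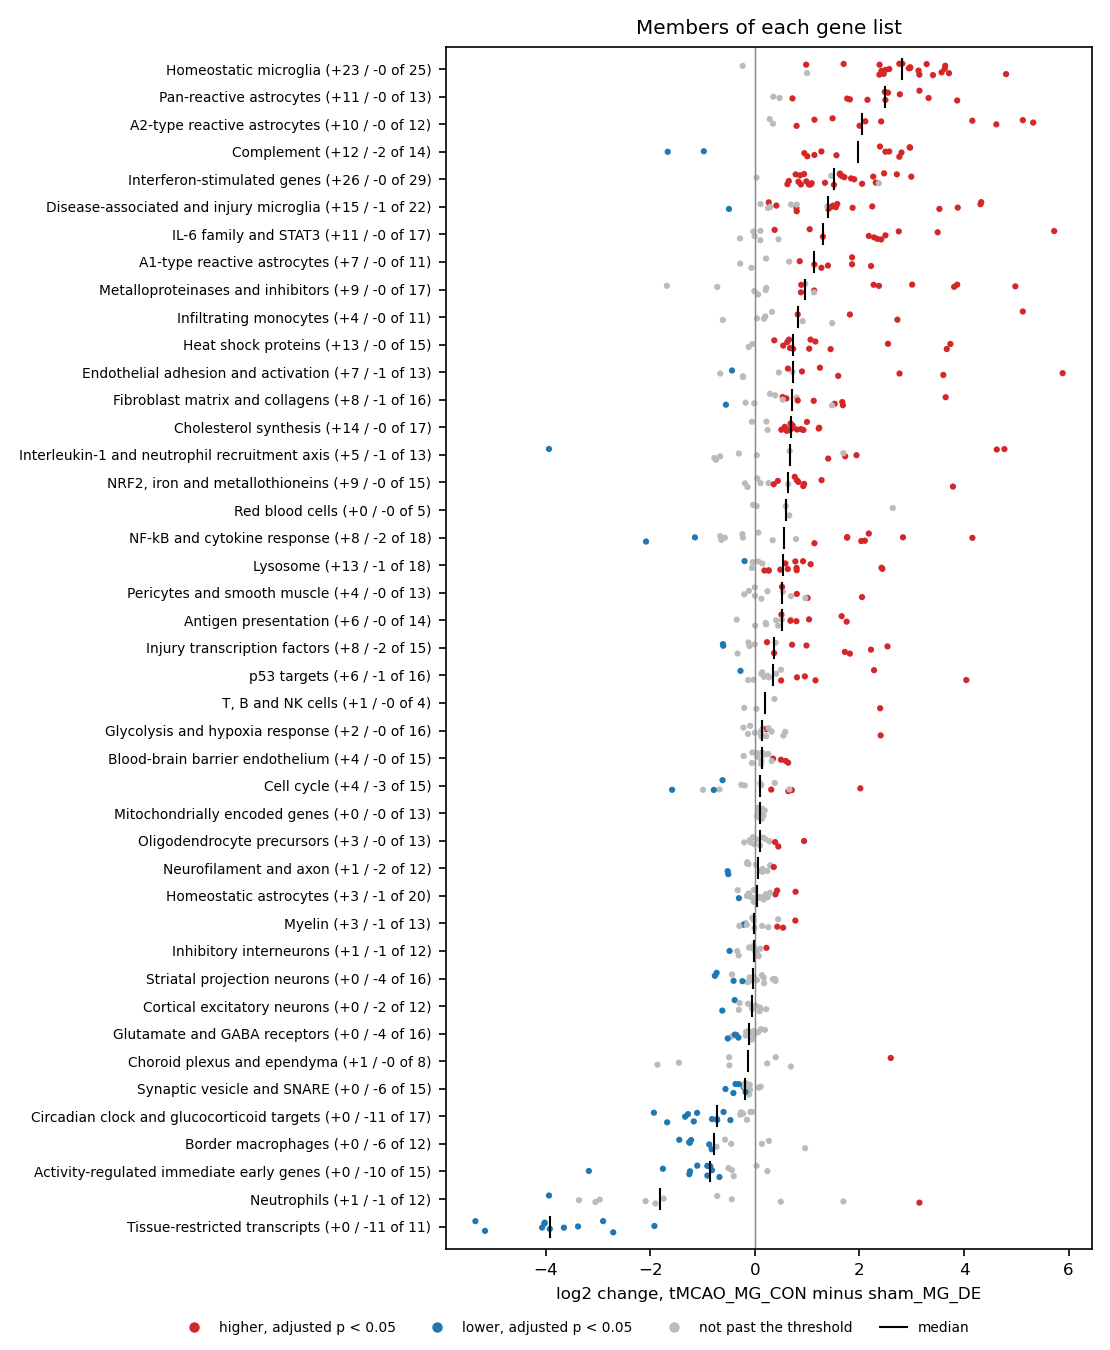
Each row is 1 gene list and each point 1 tested member, placed by its log2 change in tMCAO_MG_CON minus sham_MG_DE (x axis), with called members in red (higher) or blue (lower), the others in grey, and the list's median as a black bar. Labels give the members called higher and lower of those tested, and the medians run from -3.92 for the tissue-restricted transcripts to 2.82 for homeostatic microglia.

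Among the lists that were higher after stroke, microglial genes had the widest gap. Of 25 homeostatic microglia genes 23 were higher in tMCAO_MG_CON and none lower, against 12.7% higher over all genes, and the list's median was 2.82. Csf1r, the survival receptor of microglia, stood at 76.4, 86.3, 97.4 and 91.5 CPM in tMCAO_MG_CON and 7.57, 10.2, 15.97 and 6.10 in sham_MG_DE, a log2 change of 3.15 (SE 0.23, adjusted p = 2.1e-06). No depletion library came near the lowest stroke library, and the 3 control libraries, at 92.0, 93.4 and 92.8, lay within the stroke range. Tmem119, a membrane protein that marks resident microglia (chr5:113793729-113800516, minus strand, GRCm38), stood at 13.8, 13.4, 17.1 and 17.6 CPM after stroke and 1.41, 0.955, 2.50 and 0.171 after depletion (log2 change 3.64, SE 0.36, adjusted p = 2.9e-05). Replicate 4 of sham_MG_DE was the lowest of its group in Csf1r and Tmem119, and replicate 3 the highest. P2ry12, the purine receptor that guides microglial processes, was 2.82 higher (SE 0.43, adjusted p = 6.7e-04). The toxin was given to kill these cells, so the low side of the gap is the design's own, and the summed level of the list was 735.9 to 884.5 CPM in tMCAO_MG_CON and 142.7 to 217.7 in sham_MG_DE.

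Part of the list was also above its control level in the stroke group. C1qa, C1qb and C1qc, the chains of the first complement component, stood at 57.3 to 61.2, 52.9 to 71.8 and 51.5 to 63.1 CPM in tMCAO_MG_CON, 7.35 to 11.9, 5.19 to 12.6 and 7.07 to 11.8 in sham_MG_DE, and 28.7 to 38.8, 27.3 to 32.1 and 28.7 to 34.8 in sham_MG_CON. The 3 chains therefore followed one order, stroke above control above depletion, with no overlap between neighbouring groups. Their log2 changes between stroke and depletion were 2.76 (SE 0.15), 2.97 (SE 0.21) and 2.57 (SE 0.14), with adjusted p = 4.4e-07, 2.1e-06 and 4.6e-07. Fcrls, a scavenger receptor-like gene of microglia, stood at 46.7, 42.7, 63.5 and 52.9 CPM in tMCAO_MG_CON, 2.43, 1.23, 3.41 and 0.399 in sham_MG_DE and 17.5, 14.4 and 16.7 in sham_MG_CON, and its log2 change of 4.80 (SE 0.35, adjusted p = 2.1e-06) was the widest of the list.

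Mertk and Cx3cr1 were the 2 members not called. Mertk, a receptor for the engulfment of dead cells that astrocytes also express, stood at 56.6, 53.1, 49.1 and 60.0 CPM in tMCAO_MG_CON and 69.9, 58.5, 61.1 and 68.0 in sham_MG_DE (log2 change -0.23, adjusted p = 0.13), so the 2 ranges overlapped. Cx3cr1, the gene that carries the Cre, stood at 1.88, 1.055, 1.06 and 2.09 CPM after stroke and 1.41, 1.23, 0.305 and 0 after depletion (log2 change 1.0, SE 1.03, adjusted p = 0.52). It was low in every library of both groups, whereas the control libraries read 1.13, 24.2 and 1.19, 1 of them far above the other 2. The shared genotype is known from the labels only, and whether the libraries were alike in their Cx3cr1 alleles was not tested.

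Genes of the injury state of microglia differed by less. Of 22 members 15 were higher, Apoe was lower and the median was 1.40, and side by side with sham_MG_CON 16 had risen in tMCAO_MG_CON (5.14% of all genes had), and 2 had risen (6.85% of all genes) and 1 fallen (4.49%) in sham_MG_DE. Spp1 stood at 85.0, 143, 259 and 145.8 CPM in tMCAO_MG_CON and 9.73, 6.46, 6.83 and 8.49 in sham_MG_DE (log2 change 4.33, SE 0.32, adjusted p = 2.5e-06). The depletion libraries overlapped the control libraries (4.99, 8.79 and 6.38), so the gap lay in the stroke group, with replicate 3 at the top and replicate 1 at the bottom. Cd68, a lysosomal membrane protein of phagocytes, stood at 24.9, 19.1, 23.9 and 23.8 CPM after stroke and 7.24, 6.27, 6.58 and 5.02 after depletion (1.87, SE 0.13, adjusted p = 2.1e-06), again with the depletion libraries close to the control values of 7.56, 7.12 and 5.82. Cd9 (1.46), a tetraspanin, Ctsd (0.80), the protease cathepsin D, and Ccl3 (3.88, and 4.52 without sham_MG_DE replicate 2), a chemokine, were also higher. Lysosomal genes numbered 13 higher and 1 lower of 18 (median 0.53), among them Ctsd. Antigen presentation genes numbered 6 higher and none lower of 14 (median 0.51, and 0.30 without tMCAO_MG_CON replicate 3), but 3 without sham_MG_DE replicate 2 or tMCAO_MG_CON replicate 3. Msr1, the macrophage scavenger receptor, and Lgals3, the lectin galectin-3, differed from these in having risen in both groups against sham_MG_CON, by 5.90 and 4.61 in tMCAO_MG_CON and by 2.37 and 2.37 in sham_MG_DE (edgeR adjusted p = 5.0e-05 and 9.9e-05, then 0.033 and 0.014). Directly compared, both were higher in the stroke group, by 3.53 (SE 0.38) and 2.24 (SE 0.33). Apoe, the lipid carrier made largely by astrocytes, stood at 411, 528, 429.8 and 492 CPM in tMCAO_MG_CON and 696, 707, 641 and 581 in sham_MG_DE, lower by 0.50 (SE 0.11, adjusted p = 0.0061) with no overlap.

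The border macrophages, which line the vessels, meninges and choroid plexus, went the other way. None of the 12 tested members was higher in tMCAO_MG_CON and 6 were lower, against 12% over all genes, with a median of -0.78. F13a1, a transglutaminase subunit, stood at 4.30, 3.79, 5.82 and 6.01 CPM in tMCAO_MG_CON, 10.7, 13.6, 9.14 and 13.7 in sham_MG_DE and 1.56, 2.75 and 2.32 in sham_MG_CON, a log2 change of -1.25 (SE 0.20, 95% interval -1.68 to -0.81, adjusted p = 9.3e-04). The 3 groups did not overlap, and depletion stood highest. Cd163, the haptoglobin-haemoglobin receptor, stood at 0.772, 1.97, 2.00 and 2.28 CPM after stroke and 3.19, 3.91, 5.36 and 4.45 after depletion against 0.536, 0.658 and 0.395 in sham_MG_CON (-1.26, SE 0.29, adjusted p = 0.0073), in the same order. Cbr2 (-1.45), a carbonyl reductase, Siglec1 (-1.22), a sialic acid-binding adhesion receptor, Mrc1 (-0.83), the mannose receptor, and Lyve1 (-0.87), the hyaluronan receptor, were the other 4.

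The smaller of these calls were not stable. Siglec1 was lost without sham_MG_DE replicate 2 or tMCAO_MG_CON replicates 1 or 2 (adjusted p = 0.082, 0.056 and 0.067). Mrc1 was lost without sham_MG_DE replicates 1 or 2 or tMCAO_MG_CON replicates 1 or 2 (edgeR adjusted p = 0.056 to 0.072). Lyve1, with an adjusted p of 0.049, was lost on leaving out any 1 of 10 of the 13 libraries (0.059 to 0.15), and was called without sham_MG_DE replicates 2 or 3 or tMCAO_MG_CON replicate 2. In 5 of the 6 every stroke and every depletion library lay above the highest control library, and in Siglec1 the lowest stroke library, at 0.772 CPM, fell just below it. Without tMCAO_MG_CON replicate 1 the list held 3 lower members in place of 6.

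Of 11 tested monocyte genes 4 were higher and none lower (36.4% against 12.7% of all genes higher). The 4 are Cd14, Vim, Thbs1 and Fn1, and none of these is known from monocytes alone. Thbs1, a matrix glycoprotein, stood at 2.98, 5.13, 23.8 and 4.07 CPM in tMCAO_MG_CON and 0.703, 1.55, 1.83 and 1.31 in sham_MG_DE, and its log2 change fell from 2.72 to 1.59 without tMCAO_MG_CON replicate 3. Ccr2, the receptor that defines recruited monocytes, was at 0, 0.192, 1.76 and 0 CPM after stroke and 0.487, 0.500, 0.183 and 0.456 after depletion (log2 change 0.17, SE 1.03, adjusted p = 0.92, and -2.52 without tMCAO_MG_CON replicate 3). It was at most 0.500 CPM in every library of both groups except tMCAO_MG_CON replicate 3. Stroke replicates 1, 2 and 4 lay below depletion replicates 1, 2 and 4. Depletion replicate 3 lay below stroke replicate 2, however, and stroke replicate 3 above every depletion library, so the groups overlapped. Of 12 tested neutrophil genes Lcn2 was higher and Mpo lower, a share of 8.33% each. Both shares lie below those of all genes, 12.7% higher and 12% lower. Lcn2, the iron-chelator binder that reactive astrocytes also make, stood at 9.93, 35.1, 19.9 and 12.4 CPM after stroke and 4.27, 0.818, 2.50 and 1.25 after depletion (3.15, SE 0.51, adjusted p = 9.6e-04). Mpo, the granule enzyme of neutrophils, read 0.221, 0, 0 and 0 CPM after stroke and 0.0541, 1.95, 0.549 and 0.969 after depletion, a few counts a library (-3.94, SE 1.27, adjusted p = 0.038), and that call was lost without sham_MG_DE replicates 2 or 4, tMCAO_MG_CON replicates 2, 3 or 4, or either tMCAO_MG_DE library (0.050 to 0.13). Its change was -7.10 without tMCAO_MG_CON replicate 1, the only stroke library with a count. Ly6g, the neutrophil surface marker, had no count in tMCAO_MG_CON and 8 in all of sham_MG_DE, below the filter. Of the T, B and NK cell list 4 members passed the filter, and Ptprc, the pan-leukocyte phosphatase CD45 that microglia carry too, was the 1 called (2.39, SE 0.23, adjusted p = 2.3e-05).

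**Figure D3:**
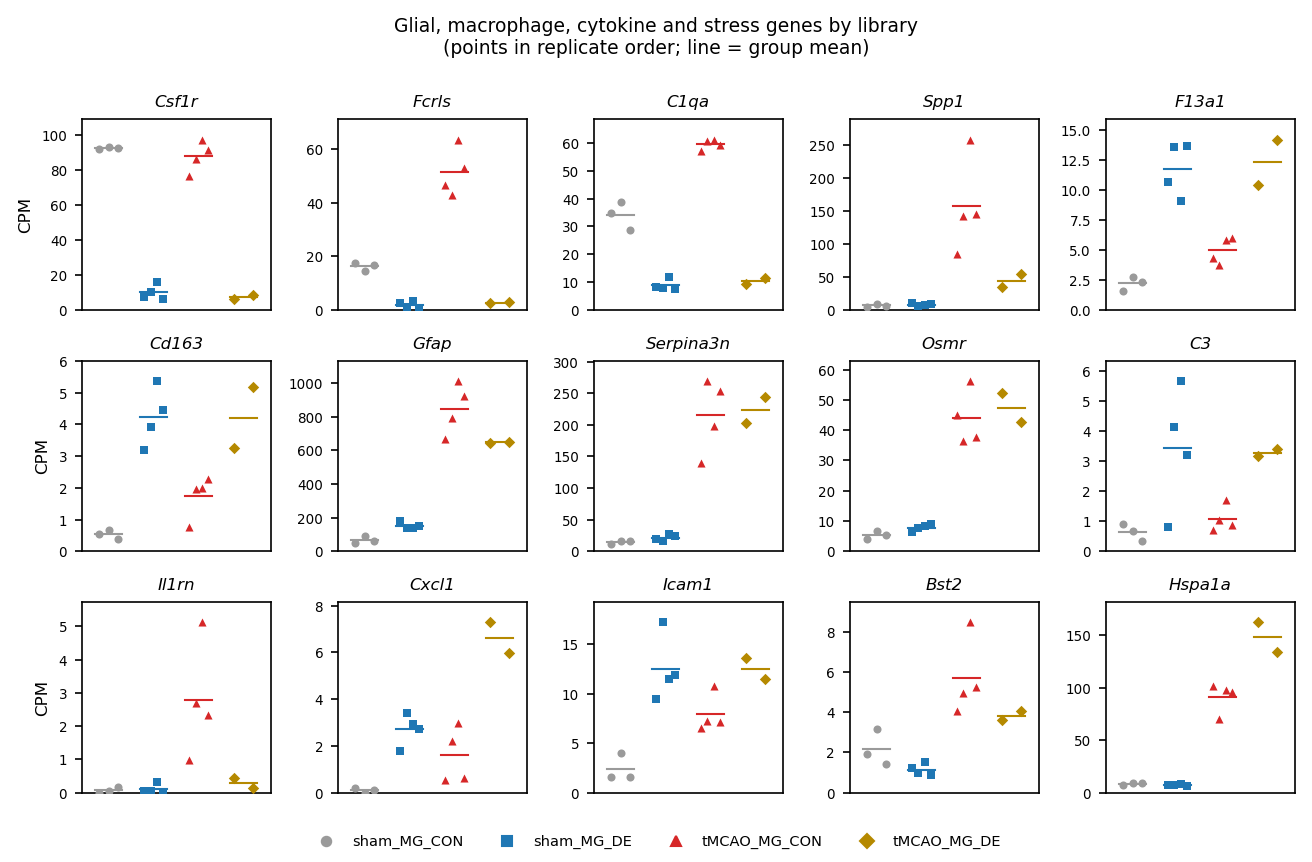
CPM (y axis, linear from 0) of 15 genes in each library of the 4 groups, with 1 point per library in replicate order from left to right and a line at each group's mean. Csf1r, Fcrls and C1qa are low in both toxin-treated groups, Gfap, Serpina3n, Osmr and Hspa1a are high in both occluded groups, and F13a1, Cd163 and C3 are lower in tMCAO_MG_CON than in sham_MG_DE in all but 1 library (sham_MG_DE replicate 1 for C3).

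Genes of astrocyte reactivity were higher after stroke than after depletion. Of 13 pan-reactive astrocyte genes 11 were higher in tMCAO_MG_CON (84.6%, against 12.7% of all genes) and none lower, with a median of 2.49. Side by side with sham_MG_CON, 12 of the 13 had risen in tMCAO_MG_CON (5.14% of all genes) and 3 in sham_MG_DE (6.85%). Gfap, the intermediate filament of astrocytes (chr11:102887336-102900912, minus strand, GRCm38), stood at 667, 790.2, 1012 and 924 CPM in tMCAO_MG_CON, 179.9, 139, 137 and 149.8 in sham_MG_DE and 51.0, 91.4 and 63.4 in sham_MG_CON. Every depletion library was above every control library, and every stroke library was above every depletion library. The difference between stroke and depletion was 2.49 on the log2 scale (SE 0.17, 95% interval 2.11 to 2.86, adjusted p = 2.0e-06), beside rises of 3.63 in tMCAO_MG_CON and 1.14 in sham_MG_DE against sham_MG_CON (adjusted p = 1.2e-06 and 0.0044). The 2 occluded and depleted libraries read 646 and 648 CPM.

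Serpina3n, a secreted protease inhibitor, stood at 140.3, 269, 198 and 254 CPM in tMCAO_MG_CON and 18.7, 16.5, 26.8 and 24.4 in sham_MG_DE (3.32, SE 0.22, adjusted p = 1.6e-06), and its rise of 0.53 in sham_MG_DE against control did not pass (adjusted p = 0.16). Osmr, the oncostatin M receptor, stood at 45.1, 36.4, 56.2 and 37.8 CPM after stroke and 6.22, 7.59, 8.35 and 8.95 after depletion (2.50, SE 0.17, adjusted p = 2.0e-06), and Hspb1, a small heat shock protein, and Vim, the filament vimentin, were 2.54 and 1.82 higher. Timp1, an inhibitor of metalloproteinases, was 3.87 higher, and 3.24 higher without tMCAO_MG_CON replicate 3. Steap4, a metalloreductase, was at 1.99, 4.03, 4.65 and 2.47 CPM after stroke and 2.05, 1.73, 3.23 and 2.51 after depletion, so that the 2 groups overlapped (0.47, 95% interval -0.25 to 1.19, adjusted p = 0.33), with sham_MG_CON at 0.161, 0.957 and 0.508. S1pr3, a sphingosine phosphate receptor, was the other member not called (0.35, 95% interval -0.05 to 0.75, adjusted p = 0.19).

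The lists named A2 and A1 for reactive astrocytes after ischemia and after inflammation were both higher in the stroke group. Of 12 A2 members 10 were higher (83.3%) and none lower (median 2.06), and of 11 A1 members 7 were higher (63.6%) and none lower (median 1.14). Over all genes 12.7% were higher. Among the A2 members, Ptgs2, the prostaglandin synthase also made by neurons, stood at 29.7, 31.3, 34.1 and 34.2 CPM after stroke and 19.0, 16.05, 12.4 and 11.2 after depletion (1.14, SE 0.15, adjusted p = 2.6e-04), Cd109, a surface co-receptor, was 2.00 higher, and Slc10a6, an organic anion transporter, read 0.993, 4.603, 2.12 and 1.89 CPM after stroke and 0, 0.0455, 0.122 and 0.0570 after depletion, with 4 counts in all of sham_MG_DE. Emp1, a membrane protein of the same list, stood at 6.12, 5.08, 5.65 and 3.83 CPM after stroke and 2.32, 3.68, 4.69 and 6.33 after depletion, up from 1.45, 1.26 and 1.64 in sham_MG_CON in both groups (edgeR adjusted p = 0.0034 and 0.0097) and overlapping between them (0.28, 95% interval -0.25 to 0.82). Among the A1 members Ggta1, a galactosyltransferase, was 1.27 higher, Srgn, a granule proteoglycan that myeloid cells express, 1.40, and Serping1, the inhibitor of the first complement component, 1.14. Against sham_MG_CON 10 A2 members had risen in tMCAO_MG_CON (5.14% of all genes had), and in sham_MG_DE 1 had risen (6.85% of all genes) and 1 fallen (4.49%). Of the A1 members 5 had risen in tMCAO_MG_CON and none in sham_MG_DE, with medians of 1.23 and 0.13.

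Genes of resting astrocytes differed little. Of 20 members 3 were higher (5 without sham_MG_DE replicate 1 or without tMCAO_MG_CON replicate 2), 1 was lower and the median was 0.04. The shares were 15% and 5%, against 12.7% and 12% of all genes. Aqp4, the water channel of astrocyte endfeet, stood at 109, 93.5, 139.7 and 124 CPM in tMCAO_MG_CON and 81.6, 69.1, 57.5 and 63.7 in sham_MG_DE (0.78, SE 0.13, adjusted p = 9.3e-04). Aldh1l1, a folate enzyme that marks astrocytes, and Atp1b2, a sodium pump subunit, were 0.39 and 0.42 higher. Glul, the glutamine synthetase, was the 1 lower member, at 1223, 1283, 1221 and 1389 against 1636, 1571, 1476 and 1640 CPM (-0.31, SE 0.06, adjusted p = 0.0021), with no overlap.

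Ligands, receptors and targets of the cytokine axis upstream of STAT3 were among the genes higher in tMCAO_MG_CON. Of 17 members 11 were higher (64.7%, against 12.7% of all genes), none was lower and 6 were not called (median 1.30). The STAT element TTCCNGGAA was in none of the 15 members with a promoter in the table used below, and in 1.09% of all genes. The ligand Il6 had 79 counts over the 4 stroke libraries and 1 over the 4 depletion libraries, a ratio of 76.8 with an exact 95% counting interval of 13.4 to 3070, and Osm had 40 against 3, a ratio of 13 (4.13 to 65.5). Both intervals cover counting error only and leave out the spread between libraries. Among the receptors Il6ra and the shared subunit Il6st were 1.05 (SE 0.16) and 0.38 (SE 0.06) higher, beside Osmr above. Stat3 itself stood at 97.6, 130.5, 128 and 107 CPM in tMCAO_MG_CON and 51.8, 42.7, 46.7 and 46.9 in sham_MG_DE (1.30, SE 0.10, adjusted p = 3.7e-06), and the depletion libraries overlapped the control libraries at 45.8, 45.6 and 49.9. Its target and inhibitor Socs3 stood at 11.9, 32.7, 27.5 and 19.7 CPM after stroke and 5.41, 4.23, 4.81 and 4.45 after depletion (2.28, SE 0.27, adjusted p = 1.1e-04). Bcl3, a nuclear IkB protein, was 2.18 higher in the stroke group (SE 0.34) and had risen in both groups against control, by 4.37 and 2.19.

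Of 13 genes of the interleukin-1 and neutrophil recruitment axis 5 were higher and 1 (Mpo, above) was lower, with a median of 0.67 that became -0.03 without tMCAO_MG_CON replicate 3. The shares were 38.5% and 7.69%, against 12.7% and 12% of all genes. Il1a, an agonist of the interleukin-1 receptor, stood at 0.993, 2.06, 1.53 and 1.36 CPM in tMCAO_MG_CON, 0, 0.0455, 0.122 and 0.0570 in sham_MG_DE and 0.644, 0.538 and 0.678 in sham_MG_CON. Depletion libraries lay below every control library and stroke libraries above, and the difference was 4.63 on the log2 scale (SE 0.59, adjusted p = 2.0e-04). The receptor antagonist Il1rn (chr2:24336853-24351494, plus strand, GRCm38) stood at 0.993, 2.69, 5.12 and 2.33 CPM after stroke and 0.0541, 0.0455, 0.305 and 0 after depletion, at most 5 counts in a depletion library (4.77, SE 0.74, adjusted p = 6.9e-04, and 6.08 without sham_MG_DE replicate 3). The receptor Il1r1, at 14.1, 20.2, 23.1 and 19.4 CPM after stroke and 11.5, 5.36, 5.67 and 6.56 after depletion, was 1.40 higher (SE 0.24), and the protease Casp1, which matures Il1b, 1.73. Il1b itself stood at 0.717, 0.959, 1.18 and 0.776 CPM after stroke and 0.541, 0.500, 0.731 and 0.513 after depletion, with 1 depletion library above the lowest stroke library, and the difference of 0.67 did not pass (95% interval -0.18 to 1.51, adjusted p = 0.24).

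The neutrophil chemokine Cxcl1 and the adhesion molecule Icam1 had risen in both groups. Cxcl1, a ligand of Cxcr2 (chr5:90891241-90893115, plus strand, GRCm38), stood at 0.552, 2.21, 3.00 and 0.631 CPM in tMCAO_MG_CON, 1.78, 3.41, 2.93 and 2.74 in sham_MG_DE and 0.215, 0 and 0.113 in sham_MG_CON. It had risen against control by 3.74 and 4.51 (edgeR adjusted p = 0.013 and 0.0057), and the difference of -0.78 between them did not pass (SE 0.46, 95% interval -1.76 to 0.21, adjusted p = 0.24). Stroke replicates 1 and 4 lay below every depletion library and replicates 2 and 3 within their range. Icam1, the endothelial and glial adhesion molecule for leukocytes, stood at 6.51, 7.29, 10.8 and 7.18 CPM after stroke and 9.52, 17.2, 11.5 and 11.9 after depletion against 1.61, 4.01 and 1.58 in sham_MG_CON, with rises of 1.73 and 2.39 (adjusted p = 0.0063 and 0.0013). The direct difference in Icam1 was -0.66 (SE 0.26, 95% interval -1.22 to -0.11, adjusted p = 0.078). It did not pass here, and did pass with DESeq2 (adjusted p = 0.043) and with edgeR (0.027 to 0.048) without sham_MG_CON replicate 2, sham_MG_DE replicate 1 or tMCAO_MG_CON replicate 3. Cxcl2 (0.0552, 0.623, 1.41 and 0.0970 CPM after stroke and 0.973, 0.909, 0.9752 and 0.741 after depletion) and the receptor Cxcr2 (0, 0.0959, 0.529 and 0 CPM after stroke and 0, 0, 0.183 and 0 after depletion, 11 counts against 3) gave no call, with adjusted p = 0.46 and 0.46. Leaving out tMCAO_MG_CON replicate 3 changed the Cxcl2 difference from -0.74 to -1.74 and that of Cxcr2 from 1.69 to -0.25. Cxcl5, a further ligand at under 1 CPM, was 1.94 higher (adjusted p = 0.016), a call lost without sham_MG_DE replicate 2 (0.054).

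NF-kB targets and chemokines held members in both directions. Of 18 tested 8 were higher and 2 lower (4 lower without sham_MG_DE replicate 1), with a median of 0.56. The shares were 44.4% and 11.1%, against 12.7% and 12% of all genes. Ccl12 stood at 7.12, 12.6, 14.1 and 11.98 CPM in tMCAO_MG_CON and 1.24, 0.409, 0.731 and 0.171 in sham_MG_DE (4.16, SE 0.40, adjusted p = 2.3e-05), Ccl2, the principal monocyte chemokine, was 1.76 higher (SE 0.43, adjusted p = 0.010), and Cxcl16, a membrane-bound chemokine, 2.03. Tnfaip2, a tumour necrosis factor-induced gene, stood at 0.717, 1.29, 0.765 and 0.534 CPM after stroke and 1.51, 4.73, 4.02 and 3.88 after depletion, lower by 2.08 (SE 0.35, adjusted p = 0.0012), and Relb, a subunit of the non-canonical NF-kB pathway, at 5.30, 5.47, 6.06 and 3.78 CPM after stroke and 7.95, 17.3, 7.80 and 12.4 after depletion, lower by 1.15 (SE 0.25, adjusted p = 0.0050). Both were separated between the groups, with the depletion libraries above the control values of 0.644, 0.538 and 0.678 for Tnfaip2 and 5.04, 3.65 and 4.91 for Relb.

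**Figure D4:**
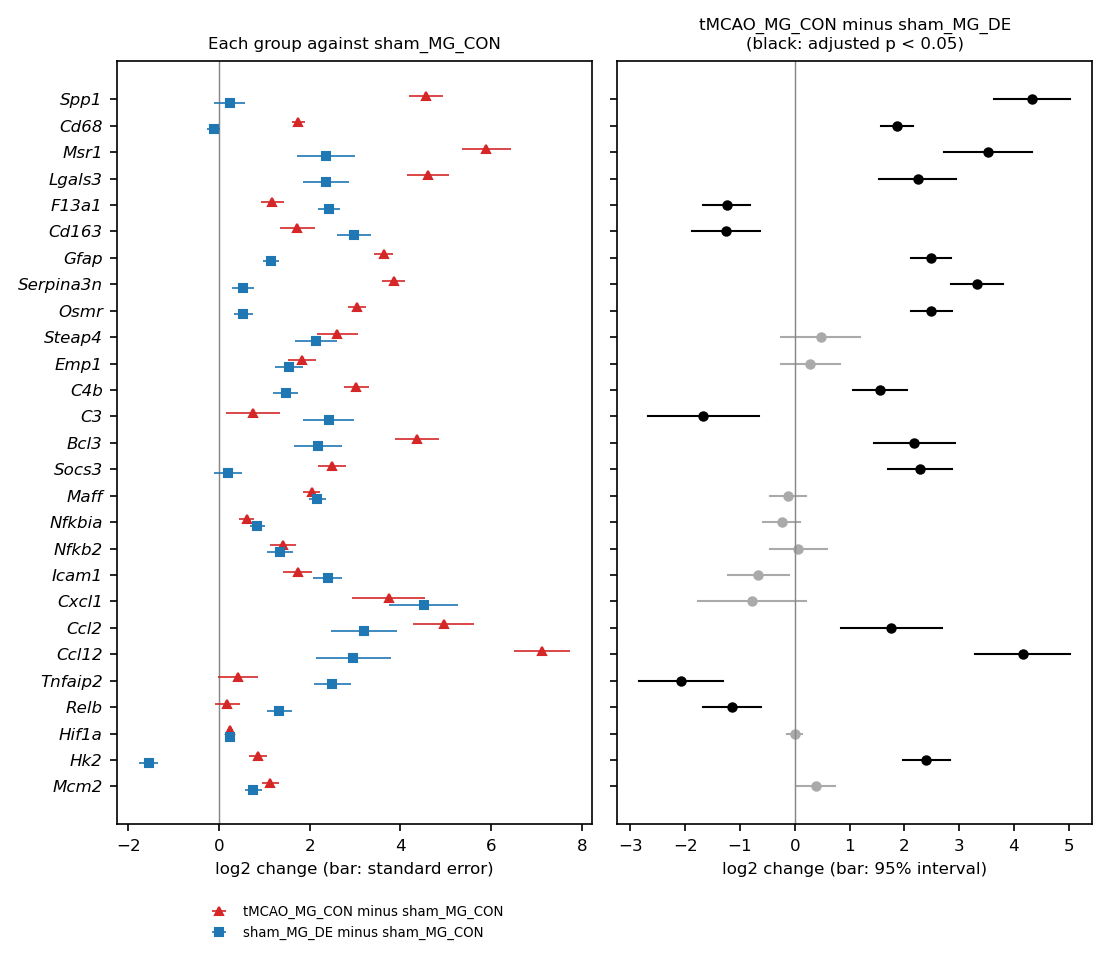
For 27 genes the left panel gives the log2 change of tMCAO_MG_CON (red triangles) and sham_MG_DE (blue squares), each against the shared sham_MG_CON libraries, with standard errors, and the right panel gives the direct difference of tMCAO_MG_CON minus sham_MG_DE with its 95% interval, black where called. Maff, Nfkb2 and Hif1a lie at like values on the left and near 0 on the right, whereas F13a1, Cd163, C3, Tnfaip2 and Relb lie below 0.

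Some genes had risen in both groups, each time against the same control libraries, and were not called in the direct comparison. How many of all genes had risen in both was not counted. Among list members that rose in both against sham_MG_CON, the narrowest intervals belonged to Hif1a, Maff, Nfkbia, Mcm2, Gfap, F13a1, C4b and Nfkb2. Hif1a, the oxygen-regulated transcription factor, stood at 91.6, 83.4, 92.6 and 82.1 CPM in tMCAO_MG_CON, 85.3, 84.5, 95.1 and 85.0 in sham_MG_DE and 71.5, 73.8 and 76.5 in sham_MG_CON, and the 95% interval of the difference between the first 2 was -0.14 to 0.13. Its rises against control were small, 0.24 after stroke and 0.24 after depletion (edgeR adjusted p = 0.045 and 0.038). Maff, a small Maf transcription factor, stood at 5.08, 5.47, 6.53 and 4.46 CPM after stroke and 4.81, 6.36, 5.42 and 6.78 after depletion against 1.34, 1.14 and 1.41 in sham_MG_CON (interval -0.45 to 0.20). In both genes the stroke and depletion libraries lay above every control library and overlapped each other. Hif1a overlaps another gene on its own strand, so its counts may hold reads of both. The intervals of the difference were -0.57 to 0.09 for Nfkbia, the inhibitor of NF-kB, -0.45 to 0.58 for Nfkb2, a precursor of the non-canonical pathway, and 0.03 to 0.73 for the replication helicase subunit Mcm2, and none of these 5 differences passed (adjusted p = 0.99, 0.60, 0.29, 0.87 and 0.10). Gfap and F13a1, given above, and C4b, the fourth complement component at 60.4, 94.7, 97.4 and 108 CPM after stroke and 27.4, 27.4, 35.5 and 32.2 after depletion (1.56, SE 0.23, adjusted p = 5.2e-04), were called.

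Complement genes apart from C3 and C2 were all higher. Of 14 tested members 12 were higher (85.7%) and 2 lower (14.3%), against 12.7% and 12% of all genes, with a median of 1.98. The C1q chains are described above, and the receptor C5ar1 stood at 5.02, 9.45, 9.59 and 7.91 CPM in tMCAO_MG_CON and 1.03, 0.955, 0.853 and 1.25 in sham_MG_DE (2.96, SE 0.32, adjusted p = 5.9e-05). C3, the central component that reactive astrocytes and macrophages can make, stood at 0.717, 1.055, 1.71 and 0.873 CPM after stroke and 0.811, 4.14, 5.67 and 3.19 after depletion against 0.912, 0.658 and 0.339 in sham_MG_CON, lower by 1.67 in the stroke group (SE 0.47, adjusted p = 0.020). Replicates 2 to 4 of sham_MG_DE lay above every stroke library and replicate 1 did not, and the call was lost without sham_MG_DE replicates 2 or 3 or tMCAO_MG_CON replicates 1 or 4 (adjusted p = 0.052 to 0.063). C2 was lower by 0.98 (adjusted p = 0.031), a call lost without sham_MG_DE replicates 2 or 3 or tMCAO_MG_CON replicates 1, 2 or 4 (adjusted p = 0.050 to 0.080).

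Interferon-stimulated genes were higher in the stroke group almost throughout. Of 29 members 26 were higher (89.7%, against 12.7% of all genes) and none lower (median 1.51), and 20 had risen in tMCAO_MG_CON against sham_MG_CON (5.14% of all genes had). The list's median against sham_MG_CON was 1.29 in tMCAO_MG_CON and -0.15 in sham_MG_DE. Bst2, the membrane tether of budding virions, stood at 4.08, 4.94, 8.47 and 5.24 CPM in tMCAO_MG_CON, 1.24, 0.955, 1.52 and 0.855 in sham_MG_DE and 1.93, 3.17 and 1.41 in sham_MG_CON (2.31, SE 0.30, adjusted p = 2.0e-04). The transcription factors of the pathway, Irf9 (0.86, SE 0.13) and Stat2 (0.78, SE 0.12), were higher too, as were Ifit2 (0.98) and Rtp4 (1.67), an antiviral effector and a receptor chaperone. Isg15, the ubiquitin-like modifier, stood at 2.48, 2.21, 7.12 and 2.13 CPM after stroke and 0.649, 0.636, 0.853 and 0.342 after depletion (2.47, SE 0.43, and 1.86 without tMCAO_MG_CON replicate 3), and Ifit3 at 19.2, 20.6, 38.9 and 17.0 and 8.70, 7.14, 10.4 and 4.79 (1.62, SE 0.30). Replicate 3 of tMCAO_MG_CON was the highest of its group in Bst2, Isg15 and Ifit3. Summed over the list the levels were 327.7 to 577.1 CPM in tMCAO_MG_CON, 181.7 to 230.7 in sham_MG_DE, 194.7 to 251.1 in sham_MG_CON and 312.0 to 388.7 in the 2 libraries that were both occluded and depleted, in which the microglial list summed to 175.4 to 193.1.

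The 250 bases before the starts of these genes were searched for the interferon-stimulated response element, written TTTCNNTTTC (N is any base, both strands), in RefSeq promoters of GRCm38.p6. Of the 29 members 21 had a promoter in that table and 9 of the 21 held the letters, against 3.46% of 27025 genes. The list was chosen as interferon-stimulated, so this share describes the list and not the difference between the groups. Bst2 (chr8:71537473-71537722, minus strand), Isg15 (chr4:156200819-156201068, minus strand) and Ifit1 (chr19:34640639-34640888, plus strand) are shown as the 3 with the largest log2 changes among the 6 that hold more than 1 match, and the matched letters are in capitals, 5′ to 3′ on the gene's strand.
Bst2: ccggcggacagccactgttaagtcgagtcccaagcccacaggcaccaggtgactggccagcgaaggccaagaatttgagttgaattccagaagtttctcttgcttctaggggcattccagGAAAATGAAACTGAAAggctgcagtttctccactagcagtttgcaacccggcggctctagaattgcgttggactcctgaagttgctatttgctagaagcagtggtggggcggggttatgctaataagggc
Isg15: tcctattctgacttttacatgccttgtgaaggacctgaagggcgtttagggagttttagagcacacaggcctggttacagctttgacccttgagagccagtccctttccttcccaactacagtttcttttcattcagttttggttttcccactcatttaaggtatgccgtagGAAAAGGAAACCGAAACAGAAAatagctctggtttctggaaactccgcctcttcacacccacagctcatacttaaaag
Ifit1: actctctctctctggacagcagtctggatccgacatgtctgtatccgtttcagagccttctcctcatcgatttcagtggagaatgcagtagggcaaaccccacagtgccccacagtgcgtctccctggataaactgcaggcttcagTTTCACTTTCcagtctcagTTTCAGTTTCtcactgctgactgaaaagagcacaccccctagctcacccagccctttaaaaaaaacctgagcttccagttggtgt
Matches overlap in Bst2 and Isg15, where they read GAAANNGAAA, the same letters on the other strand, and Ifit1 was 2.05 higher (adjusted p = 0.0016). Of the other 3 with more than 1 match, Ifit3 and Gbp3 were 1.62 and 1.09 higher, and Oas1a was not called (1.46, adjusted p = 0.056). The call of Gbp3 was lost without sham_MG_DE replicate 4 or tMCAO_MG_CON replicate 3, and Oas1a was called without sham_MG_DE replicate 3 or tMCAO_MG_CON replicate 2 (adjusted p = 0.038 and 0.046). A match describes the sequence and is not evidence of binding.

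Hspa1a had the smallest p of all genes tested. Of 15 heat shock members 13 were higher (86.7%, against 12.7% of all genes) and none lower (median 0.73). Hspa1a, the inducible 70 kDa chaperone (chr17:34969190-34972156, minus strand, GRCm38), stood at 102, 70.3, 97.5 and 96.3 CPM in tMCAO_MG_CON, 7.46, 7.18, 8.23 and 5.87 in sham_MG_DE and 7.03, 8.91 and 8.87 in sham_MG_CON (3.67, SE 0.14, adjusted p = 2.4e-08). Depletion and control libraries shared one narrow range, and the 2 occluded and depleted libraries were at 162.3 and 134. Its near-identical neighbour Hspa1b, from which its reads may not be told apart, was 3.74 higher (SE 0.20), the co-chaperone Bag3 1.16 (SE 0.12) and the mitochondrial chaperonins Hspe1 and Hspd1 1.04 (SE 0.12) and 0.67 (SE 0.10). The heat shock element GAANNTTCNNGAA was found before 2 of the 10 members in the promoter table, against 0.514% of all genes, and the 2 are Hspe1 and Hspd1, which start back to back and share the sequence, shown for Hspe1 (chr1:55087898-55088147, plus strand) with the 2 overlapping matches in capitals.
Hspe1: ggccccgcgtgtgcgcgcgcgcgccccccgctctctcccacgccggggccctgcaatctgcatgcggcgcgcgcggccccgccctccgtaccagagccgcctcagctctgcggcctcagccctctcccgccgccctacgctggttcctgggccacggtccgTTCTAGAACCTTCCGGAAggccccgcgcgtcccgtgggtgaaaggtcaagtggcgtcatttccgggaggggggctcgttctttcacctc

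Other stress genes followed, and their counts stand beside 12.7% higher and 12% lower over all genes. Of 15 genes of the NRF2, iron and metallothionein list 9 were higher and none lower (median 0.64, and 0.42 without tMCAO_MG_CON replicate 3), led by Hmox1, the haem-degrading enzyme, at 40.7, 77.1, 120.0 and 34.7 CPM in tMCAO_MG_CON and 4.92, 5.59, 4.39 and 4.73 in sham_MG_DE (3.79, SE 0.35, adjusted p = 1.6e-05), and Txnrd1, a thioredoxin reductase (0.94, SE 0.10). Of 16 p53 targets 6 were higher and 1 lower (a call lost without sham_MG_CON replicates 2 or 3, sham_MG_DE replicates 2 or 4 or tMCAO_MG_CON replicates 1, 2 or 3), with Gdf15, a stress cytokine, at 2.76, 1.39, 3.24 and 1.02 CPM after stroke and 0.216, 0.136, 0 and 0.114 after depletion (4.04, SE 0.63) and Ccng1, a cyclin, 0.80 higher. Injury transcription factors numbered 8 higher and 2 lower of 15 (3 lower without sham_MG_DE replicate 1, and 1 without sham_MG_DE replicates 2 or 3 or tMCAO_MG_CON replicates 1, 3 or 4). Atf3, a factor induced in damaged cells, stood at 4.97, 8.87, 12.2 and 4.46 CPM after stroke and 0.595, 1.36, 1.52 and 1.77 after depletion (2.54, SE 0.43, adjusted p = 0.0012), and Atf5 was 0.99 higher, whereas Atf4, the factor of the integrated stress response, stood at 119, 116, 108 and 100.3 CPM after stroke and 113, 222, 152 and 187 after depletion and was lower by 0.61 (SE 0.15, adjusted p = 0.013), with replicate 1 of sham_MG_DE inside the stroke range. Among 16 glycolysis and hypoxia genes 2 were higher (6 without sham_MG_DE replicate 1), a share of 12.5% that is near the 12.7% of all genes. Of these 2, Hk2, a hexokinase, stood at 7.28, 8.58, 7.29 and 7.61 CPM in tMCAO_MG_CON, 1.46, 0.864, 2.01 and 1.54 in sham_MG_DE and 4.18, 4.49 and 4.12 in sham_MG_CON (2.40, SE 0.20, adjusted p = 6.1e-06), below control after depletion and above it after stroke.

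Of 13 endothelial adhesion and activation genes 7 were higher (53.8%) and 1 lower (7.69%), against 12.7% and 12% of all genes, with a median of 0.72. The adhesion receptor Sele stood at 0.828, 2.45, 2.59 and 1.65 CPM after stroke and 0.270, 0.0909, 0.183 and 0.0570 after depletion (3.60, SE 0.54, adjusted p = 5.9e-04). Its relative Selp had 150 counts against 2, a ratio of 72.9 with an exact 95% counting interval of 19.8 to 607 (counting error only, without the spread between libraries). Both are selectins, which slow leukocytes on the vessel wall, and Icam1, which holds them there, had the uncalled difference of opposite sign given above. Ch25h, a cholesterol hydroxylase, stood at 2.81, 11.4, 11.1 and 7.37 CPM after stroke and 1.62, 1.18, 1.28 and 0.684 after depletion (2.77, SE 0.47). Pericyte and smooth muscle genes numbered 4 higher (30.8%) and none lower of 13 (median 0.52, and 0.29 without tMCAO_MG_CON replicate 2). Of 15 barrier genes 4 were higher (26.7%) and none lower (median 0.14), with the junction cadherin Cdh5 at 18.1, 23.5, 33.3 and 23.5 CPM after stroke and 17.1, 16.6, 14.4 and 15.1 after depletion (0.64, SE 0.15, adjusted p = 0.0070).

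Of 17 metalloproteinases and inhibitors 9 were higher (52.9%, against 12.7% of all genes) and none lower (2 lower without sham_MG_DE replicate 1), with a median of 0.96. Adamts1, a proteoglycan-cleaving protease, stood at 31.6, 57.1, 67.2 and 36.4 CPM after stroke and 9.41, 8.82, 8.53 and 10.4 after depletion (2.37, SE 0.21, adjusted p = 1.3e-05), Mmp12, the macrophage elastase, was 3.81 higher (SE 0.57), and Mmp3 and Timp1 are given above. Among 16 fibroblast matrix genes 8 were higher (50%) and 1 lower (6.25%, against 12% of all genes), with a median of 0.70, led by the glycoprotein Tnc at 7.28, 12.9, 23.5 and 7.91 CPM after stroke and 1.51, 0.955, 0.914 and 0.684 after depletion (3.65, SE 0.42, adjusted p = 8.0e-05). Of 15 cell cycle genes 4 were higher (2 without sham_MG_DE replicate 2 or without tMCAO_MG_CON replicate 3) and 3 lower. The shares were 26.7% and 20%, against 12.7% and 12% of all genes. The replication subunit Mcm3 was 2.02 higher (SE 0.29, adjusted p = 4.1e-04), and the mitotic genes Ccnb2, a cyclin, and Plk1, a kinase, were lower by 1.58 and 0.79 (adjusted p = 0.0032 and 0.012).

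Neuronal activity genes were lower after stroke. None of 15 immediate early genes was higher and 10 were lower (66.7%, against 12% of all genes), with a median of -0.85. Egr1, a zinc finger factor induced by synaptic activity, stood at 138, 118, 196 and 177 CPM in tMCAO_MG_CON, 451, 837, 411 and 428 in sham_MG_DE and 491, 374 and 447 in sham_MG_CON (-1.76, SE 0.22, adjusted p = 1.7e-04). Depletion libraries overlapped control libraries except for replicate 2, which was the highest of all, and no stroke library reached them. Egr2, a related factor, stood at 0.717, 2.59, 3.71 and 2.38 CPM after stroke and 13.2, 46.1, 15.1 and 9.98 after depletion against 10.6, 4.13 and 5.93 in sham_MG_CON, and its change of -3.18 became -2.44 without sham_MG_DE replicate 2. Egr4 (-1.25), Nr4a1 (-1.24), a nuclear receptor, and Arc (-0.91), a synaptic capsid-like protein, were lower too.

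Lists of neuron types and synapses had medians near 0 and together more calls downward than upward. Among 16 striatal, 12 cortical, 15 synaptic vesicle and 16 glutamate and GABA receptor genes none was higher and 4, 2, 6 and 4 were lower, beside 12% of all genes, with medians of -0.04, -0.05, -0.18 and -0.11. The striatal count was 2 without tMCAO_MG_CON replicates 1, 3 or 4. Of 12 interneuron genes 1 was higher and 1 lower (median -0.02), and of 12 neurofilament and axon genes 1 was higher and 2 were lower (median 0.07). In these lists 8.33% and 8.33% were higher and 8.33% and 16.7% lower, against 12.7% and 12% of all genes. The higher ones were Gad2, an enzyme of GABA synthesis, by 0.22 (SE 0.07, adjusted p = 0.039), and Stmn2, a tubulin-binding protein of growing axons, by 0.36 (SE 0.11, adjusted p = 0.029). Both calls were lost without sham_MG_DE replicates 2, 3 or 4 or tMCAO_MG_CON replicate 4, that of Stmn2 also without tMCAO_MG_CON replicates 2 or 3, and that of Gad2 also without sham_MG_CON replicate 2, tMCAO_MG_CON replicate 1 or tMCAO_MG_DE replicate 1. Without sham_MG_DE replicate 1, 6 neurofilament and axon genes were higher and 3 lower. Camk2a, the forebrain calcium-calmodulin kinase, stood at 2242, 2483, 2037 and 2939 CPM in tMCAO_MG_CON and 3591, 3736, 3761 and 3852 in sham_MG_DE (-0.62, SE 0.10, adjusted p = 7.2e-04), with no overlap. Vamp2, the vesicle SNARE, and Grin2b, an NMDA receptor subunit, were lower by 0.41 (SE 0.06) and 0.52 (SE 0.10), and Mapt, the axonal protein tau, by 0.51 (SE 0.05, adjusted p = 3.6e-05). Pdyn, the opioid precursor of striatal neurons, stood at 22.7, 24.9, 25.2 and 26.7 CPM in tMCAO_MG_CON, 43.3, 41.4, 44.9 and 39.6 in sham_MG_DE and 26.3, 35.2 and 29.8 in sham_MG_CON, lower by 0.77 in the stroke than in the depletion group (SE 0.09, adjusted p = 1.0e-04), and it had risen by 0.47 in sham_MG_DE against sham_MG_CON (adjusted p = 0.012).

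Genes of cholesterol synthesis were higher in the stroke group, with the gap on the side of the depletion libraries. Of 17 members 14 were higher (82.4%, against 12.7% of all genes) and none lower, with a median of 0.69. Against sham_MG_CON the list's median was 0.12 in tMCAO_MG_CON and -0.60 in sham_MG_DE, where 9 had fallen (4.49% of all genes had). Insig1, the sterol-regulated anchor of the pathway's transcription factor, stood at 54.8, 80.8, 90.8 and 68.0 CPM in tMCAO_MG_CON, 42.9, 37.7, 39.2 and 40.2 in sham_MG_DE and 65.7, 55.5 and 61.0 in sham_MG_CON (0.88, SE 0.13, adjusted p = 4.8e-04). Sc5d, a desaturase of the pathway, stood at 49.4, 57.5, 65.0 and 58.4 CPM in tMCAO_MG_CON, 44.4, 34.0, 35.7 and 36.9 in sham_MG_DE and 58.5, 52.5 and 52.1 in sham_MG_CON (0.61, SE 0.10, adjusted p = 9.8e-04), with replicate 1 of sham_MG_DE closest to the others. The enzyme Sqle was 1.0 higher (SE 0.18). The sterol regulatory element ATCACNCCAC was in none of the 11 members with a promoter in the table, and in 0.226% of all genes.

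Most oligodendrocyte genes were not called. Of 13 precursor genes 3 were higher and none lower, and of 13 myelin genes 3 were higher and 1 lower, so that 23.1% of each list was higher against 12.7% of all genes. Bcas1, a gene of newly forming oligodendrocytes, stood at 83.6, 131, 152 and 112 CPM in tMCAO_MG_CON, 66.3, 61.9, 54.5 and 66.0 in sham_MG_DE and 127, 127 and 104 in sham_MG_CON (0.94, SE 0.15, adjusted p = 8.0e-04), so that it was the depletion libraries that lay low. Ermn, a cytoskeletal protein of myelinating cells, stood at 40.3, 54.0, 65.2 and 50.8 CPM in tMCAO_MG_CON, 28.4, 29.2, 38.0 and 27.5 in sham_MG_DE and 47.1, 54.5 and 45.8 in sham_MG_CON, in the same order (0.77, SE 0.14), and Mag, an adhesion protein of the inner myelin wrap, was 0.54 higher. Cnp, an enzyme of non-compact myelin, was lower by 0.22 (adjusted p = 0.032), a call lost without sham_MG_DE replicates 2 or 3 or tMCAO_MG_CON replicates 1 or 4 (adjusted p = 0.055 to 0.089).

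Clock genes were lower in the stroke group, again with the gap on the side of the depletion libraries. None of the 17 clock and glucocorticoid genes was higher and 11 were lower (64.7%, against 12% of all genes), with a median of -0.72. Side by side with sham_MG_CON, 10 had risen in sham_MG_DE, where 6.85% of all genes had, and 1 had fallen in tMCAO_MG_CON, where 3.31% of all genes had. Nr1d1, the REV-ERB alpha repressor, stood at 140.7, 149, 144 and 170.1 CPM in tMCAO_MG_CON, 239, 868, 557 and 637 in sham_MG_DE and 136, 167.98 and 190.2 in sham_MG_CON (-1.93, SE 0.28, adjusted p = 4.4e-04). Replicate 1 of sham_MG_DE was the lowest of its group yet above every stroke library, and replicate 2 the highest. The same 2 libraries were lowest and highest for Per1 (165.9, 377, 309.6 and 319 CPM, against 106, 128, 107 and 141.4 in tMCAO_MG_CON), Cry1 (30.1, 76.1, 51.1 and 58.8 against 24.0, 18.0, 22.6 and 21.1) and Dbp (109, 191, 170.2 and 160.5 against 54.9, 74.3, 73.2 and 77.8), the first 2 being repressors of the clock loop and Dbp one of its output factors. Their log2 changes were -1.28, -1.33 and -1.17, and -1.47, -1.53 and -1.31 without that library. Cry2 was lower by 0.82 (SE 0.12) and Per2 by 1.11 (SE 0.18). The sources used here do not give the hour of sampling, and its part in these values was not tested.

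The E-box CACGTG, the element through which the clock's activators bind, was found in the 250 bases before 6 of the 15 members with a promoter in the table, against 6.86% of all genes. Per1 (chr11:69098699-69098948, plus strand), Cry1 (chr10:85185055-85185304, minus strand) and Ciart (chr3:95882229-95882478, minus strand) are the 3 called members among them and are shown with the E-box in capitals. Tef, Fkbp5 and Sgk1 held the letters without a call. This list too was chosen by function, so the share describes the list and not its calls.
Per1: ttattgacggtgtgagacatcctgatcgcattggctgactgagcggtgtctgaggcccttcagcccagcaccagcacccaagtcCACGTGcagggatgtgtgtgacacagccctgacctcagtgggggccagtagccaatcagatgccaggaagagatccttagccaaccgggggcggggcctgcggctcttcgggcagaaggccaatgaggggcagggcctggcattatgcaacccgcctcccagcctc
Cry1: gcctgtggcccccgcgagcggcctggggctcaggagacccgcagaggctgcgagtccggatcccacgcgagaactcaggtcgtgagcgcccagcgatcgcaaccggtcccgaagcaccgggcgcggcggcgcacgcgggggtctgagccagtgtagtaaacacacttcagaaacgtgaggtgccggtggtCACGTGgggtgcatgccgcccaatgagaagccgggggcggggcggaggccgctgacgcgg
Ciart: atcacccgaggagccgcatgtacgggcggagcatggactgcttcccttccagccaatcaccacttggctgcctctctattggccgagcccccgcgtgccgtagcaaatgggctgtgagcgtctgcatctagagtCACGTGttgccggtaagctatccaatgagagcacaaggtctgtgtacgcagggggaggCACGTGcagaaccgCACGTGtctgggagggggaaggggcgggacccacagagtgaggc
Ciart, a repressor in the same loop with 3 E-boxes in this window, stood at 19.1, 24.4, 19.9 and 23.5 CPM in tMCAO_MG_CON and 26.4, 125, 74.8 and 51.8 in sham_MG_DE (-1.68, SE 0.35, adjusted p = 0.0043).

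A set of genes usually read in tissues other than brain had the largest median in either direction, and it separated replicate 1 of sham_MG_DE from its group. All 11 tissue-restricted transcripts were lower in tMCAO_MG_CON (median -3.92), a list drawn up with earlier results of these libraries known, so its direction is no independent evidence. Loxhd1, a gene of inner ear hair cells, stood at 0.552, 0.959, 0.647 and 0.534 CPM in tMCAO_MG_CON and 1.78, 19.6, 9.57 and 13.2 in sham_MG_DE (-4.02, SE 0.57, adjusted p = 3.8e-04), and Misp at 0.276, 0.240, 0.412 and 0.340 and 0.487, 11.1, 5.55 and 4.22 (-4.07, and -3.41 without sham_MG_DE replicate 2). In both genes replicate 1 of sham_MG_DE lay closest to the stroke libraries and replicate 2 was the highest. Summed over the list, replicate 1 of sham_MG_DE read 8.759 CPM, near the stroke libraries at 6.014 to 8.529, and the highest depletion library read 119.8. Among the largest falls named above, Trim17, a ubiquitin ligase of neurons (chr11:58954685-58973098, plus strand, GRCm38, overlapping Hist3h2a on the same strand), stood at 5.41, 9.11, 10.7 and 9.60 CPM in tMCAO_MG_CON, 15.2, 107, 81.2 and 69.7 in sham_MG_DE, 11.1, 10.7 and 9.997 in sham_MG_CON and 41.7 and 45.6 in tMCAO_MG_DE. Epha8, an ephrin receptor, and Traip, a ubiquitin ligase of DNA replication, read 16.4, 90.1, 46.6 and 52.8 and 13.7, 83.2, 45.96 and 56.8 CPM in sham_MG_DE against 10.2, 9.93, 8.00 and 10.6 and 7.28, 6.86, 9.12 and 7.61 in tMCAO_MG_CON. In all 3 genes replicate 1 was the lowest depletion library and replicate 2 the highest, and the differences of -2.97, -2.41 and -2.70 were -3.30, -2.71 and -3.01 without replicate 1.

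**Figure D5:**
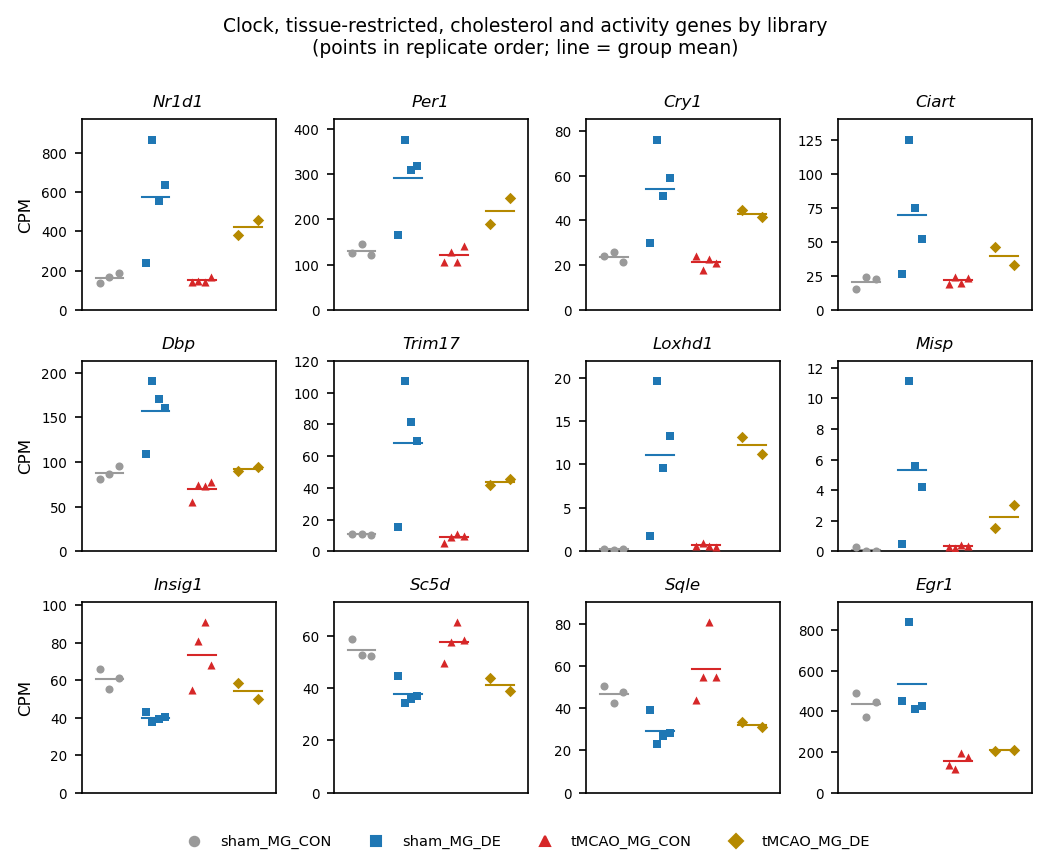
CPM (y axis, linear from 0) of 12 genes in each library of the 4 groups, with 1 point per library in replicate order from left to right and a line at each group's mean. In the clock genes, Trim17, Loxhd1 and Misp the first depletion library lies below the other 3, and in Insig1, Sc5d and Sqle the depletion libraries lie below control and stroke libraries.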

How the data were processed

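Total RNA of mouse brain was sequenced from paired-end TruSeq libraries, per the labels' protocols. For each gene the authors deposited a count, with no scaling, and an FPKM value, in tables kept separately for sham and occluded mice. The submitters' processing notes name Cufflinks 2.1.1, Cuffdiff and the mm10 build, and no source used here gives the aligner, annotation, counting tool or strand setting. Of the 152 genes named, 39 overlap a gene on the opposite strand and 9 one on the same strand in the GRCm38 annotation, so their counts may hold reads of both.

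Counts of the 21056 genes listed in both sets of tables were used; 1002 genes listed for sham mice alone and 1052 listed for occluded mice alone were not tested, gene names turned into dates (25 and 26) were left out, and counts of 27 and 26 duplicated symbols were summed. After filterByExpr 16940 genes were fitted with edgeR 4.0.16 (R 4.3.3) as 4 group means over 13 libraries of 16239763 to 22080367 counts, with TMM factors and no block. The biological coefficient of variation was 15.2%. Tests were two-sided, with Benjamini-Hochberg adjustment over all genes tested and a threshold of 0.05, and intervals are 95%. Each SE was worked back from the test, as the absolute log2 change over the square root of its F value. The intervals were built from that SE, and both are rough for genes of few counts. No label says whether replicates were separate animals, so p-values measure the spread between these libraries. The procedure was tested on simulated data. Counting intervals cover counting error only.

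The gene lists and the genes named were chosen with earlier results of these data known. Named were the interleukin-1 axis and check genes, the up to 10 largest rises and 10 largest falls with no overlap and at least 5 CPM, the up to 5 members of each list with the smallest p and members moving the other way, and the 8 list members with the narrowest interval among those risen in both groups. Some list members that did not pass were named after their values were seen, and some genes that fall under the rule are not reported here. Promoters came from RefSeq (GRCm38.p6). Alternatives used RLE factors, DESeq2 1.42.0, limma 3.58.1 on log2 FPKM, other filters, 8 libraries, a replicate block and fits without each library.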

Additional observations from a re-analysis of the deposited data

Results flagged for a closer look

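In each group of 4 libraries, the highest or lowest value of a named gene was set against the others by Dixon's criterion for a far value (the gap to the nearest library over the group's range), which by chance marks about 1 in 20 groups, and 304 groups were looked at. All values are CPM, with the range of the group's other 3 libraries after each. Replicate 3 of tMCAO_MG_CON held most of the far values marked in that group. It was high in the phagocyte and matrix genes Lgals3 (10.8, others 4.47 to 4.89), Thbs1 (23.8, others 2.98 to 5.13), Timp1 (8.94, others 2.54 to 3.17) and Vim (101.5, others 53.7 to 61.6), and in the interferon-stimulated genes Isg15 (7.12, others 2.13 to 2.48), Ifit3 (38.9, others 17.0 to 20.6) and Ifit1 (20.2, others 6.01 to 8.28). It was also high in Cxcl16 (5.59, others 2.48 to 2.81), Bag3 (17.2, others 15.1 to 15.3) and Txnrd1 (107.5, others 77.5 to 81.7), and in the monocyte receptor Ccr2 (1.76, others 0 to 0.192). Replicate 1 of the same group stood apart in Mpo (0.221, others 0), Aldh1l1 (84.6, others 102.3 to 105.1), Stmn2 (251.4, others 303.2 to 309.5) and Hspe1 (57.3, others 44.5 to 45.9).

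Replicate 2 of sham_MG_DE was high in the activity genes Egr1 (836.7, others 411 to 451), Egr2 (46.1, others 9.98 to 15.1) and Arc (418.6, others 248 to 257), in Siglec1 (5.36, others 3.41 to 3.65) and in Ccl3 (0.409, others 0.114 to 0.162). Replicate 3 of sham_MG_DE was high in Ptprc (2.44, others 1.27 to 1.46), Ermn (38.0, others 27.5 to 29.2), Hif1a (95.1, others 84.5 to 85.3) and Cxcr2 (0.183, others 0), and low in Ccr2 (0.183, others 0.456 to 0.500). Replicate 1 of sham_MG_DE was low in Mmp12 (0.0541, others 0.285 to 0.318).

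Among genes listed for the sham mice alone, which entered no test, replicate 3 of sham_MG_DE held 232 counts of Clca1, 101 of Mptx1 and 45 of Car1, which are known from the intestine. The control libraries held 0 to 1 count of Clca1, 0 of Mptx1 and 0 to 1 of Car1. Ins2, the insulin gene, had 75 counts in that library and 75 in sham_MG_CON replicate 2, and 0 in the other 5 sham libraries.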

How the results depend on the processing

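Of the 152 genes named, 135 were called, and 118 of these were called with the same sign under each of the 24 alternatives; 17 lost the call under at least 1, none of the 135 changed sign, and Icam1 and Oas1a gained a call under some. Limma on log2(FPKM + 0.1) called 4168 genes, 2884 higher and 1284 lower, with 244 at least 2-fold lower, and on log2(FPKM + 1) it called 4189, 2893 higher and 1296 lower, with 188 at least 2-fold higher and 38 at least 2-fold lower. Requiring at least 50 counts in at least 4 libraries gave 401 at least 2-fold higher and 147 at least 2-fold lower, and testing only genes of equal implied length gave 352 and 137; both tested fewer genes. With the replicate number as a block in the 8 libraries, 2287 genes were called, 1237 higher and 1050 lower, and for the rest the cause was not tested. Same-numbered libraries correlated in their deviations at 0.031, -0.064, -0.020 and -0.012, and differently numbered ones at -0.138 to 0.136. These values gave no sign that the numbers pair the libraries, and whether the numbers mark a shared batch was not tested. Under that block Ccl2, Cdh5, Arc, Atf4 and Plk1 were among the calls lost.

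Leaving out 1 library gave 2971 to 4998 calls, 1582 to 2539 higher and 1389 to 2459 lower, and 559 to 731 genes at least 2-fold higher and 225 to 532 at least 2-fold lower, the extremes of the last without sham_MG_DE replicate 2 and replicate 1. Some uncalled genes changed sign. Ccr2 was at -0.0075 with limma on log2(FPKM + 0.1), at -0.64 with the block and at -2.52 to 0.61 with 1 library left out. Cxcr2 ran from -0.25 to 4.54, Nfkb2 from -0.094 to 0.28 and Hif1a from -0.032 to 0.042 with 1 library left out, and Hif1a was at 0.065 and 0.061 with limma (pseudocounts 0.1 and 1) and 0.016 without sham_MG_DE replicate 1 and tMCAO_MG_CON replicate 4 together. Counts limit the leukocyte genes and cytokines under 1 CPM. The lists of red blood cells and of tissue-restricted transcripts gave no value among genes of equal implied length.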

Other observations

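Genes listed for the occluded mice alone could not be compared with sham libraries and are given as counts. Ccl11, the eotaxin chemokine, had 1, 45, 15 and 18 counts in tMCAO_MG_CON replicates 1 to 4, and Serpina3m, a protease inhibitor related to Serpina3n, had 5, 25, 5 and 12. Clec4e, a receptor of myeloid cells for damaged cells, had 0, 3, 21 and 2, so that replicate 3 held most of its counts.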
